A study of Mus musculus with 20 samples.

Results

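The 9 chemokine ligand genes Ccl2, Ccl5, Ccl7, Cxcl1, Cxcl2, Cxcl9, Cxcl10, Cxcl16 and Cx3cl1 were followed in RNA of endothelial cells sorted from mouse sciatic nerve. They were taken by symbol from the 55376 genes of the deposited count tables, and all 9 were found and passed the filter on low counts in both experiments. Chemokines are small secreted proteins that draw leukocytes along a gradient through G protein-coupled receptors. Endothelial cells hold them on the heparan sulfate of the vessel surface, where rolling leukocytes meet them. Cxcl16 and Cx3cl1 differ from the rest in being made as membrane-bound proteins on a stalk, from which the proteases Adam10 and Adam17 can release them. In an injured nerve, monocytes and neutrophils enter through the vessels, and macrophages are a main cell type of the new tissue between the nerve ends.

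In the Tomato experiment, cells of adult mice carried Cdh5(PAC)-CreERT2, an inducible Cre driven by the VE-cadherin gene, with the R26-TomatoLSL reporter, and all were labelled Plxnd1 WT. They came from uninjured nerve (intact, 5 libraries) or from the lesion site at 7 days (7 dpi, 5 libraries) or 14 days after injury (14 dpi, 4 libraries). In the Cherry experiment, cells carried the Kdr-Cherry reporter and came from the lesion site at 7 dpi, either with Plxnd1 deleted in endothelial cells through an inducible Cdh5 Cre and Plxnd1 fl/fl alleles (KO, 3 libraries) or from controls labelled Plxnd1 WT (WT, 3 libraries). Nerves were pooled, digested with enzymes at body temperature and sorted as reporter-positive cells without CD45, the common leukocyte antigen. The design text names the lesion a bridge and the condition label names the injury a crush, which the sources used here do not settle. No label ties a library to an animal, and the spread that p-values rest on is that of the libraries, part of which may be technical. Whether the WT mice also carried Cre, and which exons are flanked by the loxP sites, is not given in the sources used here.

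Total counts were 19057029 to 34181449 per Tomato library and 19253137 to 33793402 per Cherry library. Values are CPM, counts scaled to a common library total with TMM factors within an experiment, and levels compared between genes are CPM per kilobase of exon (RPKM). A gene was called at a Benjamini-Hochberg adjusted p under 0.05 in edgeR's quasi-likelihood test over all genes of the experiment. Pecam1, the endothelial adhesion protein CD31, averaged 1383 CPM in intact, 2292 CPM in 7 dpi and 1900 CPM in 14 dpi Tomato libraries, and 3110 CPM in KO and 2913 CPM in WT Cherry libraries. Fibroblast RNA was also abundant in the Tomato libraries. The matrix proteoglycan gene Dcn averaged 9687 CPM in intact, 3560 CPM in 7 dpi and 10150 CPM in 14 dpi libraries. It averaged 90.5 CPM in KO and 62.3 CPM in WT Cherry libraries. The collagen gene Col1a1 took another course, averaging 643 CPM in intact, 4043 CPM in 7 dpi and 5872 CPM in 14 dpi libraries. In Cherry libraries Col1a1 averaged 518 CPM in KO and 415 CPM in WT. Of 10 fibroblast genes, 6 were called higher and 2 lower at 7 dpi, and 7 higher and 1 lower at 14 dpi. In a bulk library, fewer cells of a type and less RNA per cell cannot be told apart.

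The genes lie in groups on the chromosomes of build GRCm38, at the coordinates of the deposited tables. Cxcl1 (chr5:90891241-90893115, plus strand) and Cxcl2 (chr5:90903871-90905938, plus strand) are near neighbours, as are Cxcl9 (chr5:92321347-92328079, minus strand) and Cxcl10 (chr5:92346638-92348889, minus strand). Ccl2 (chr11:82035571-82037453, plus strand) and Ccl7 (chr11:82045712-82047525, plus strand) are the first genes of a cluster that also holds Ccl11 (chr11:82057823-82062955) and Ccl8 (chr11:82115185-82116799). Ccl5 (chr11:83525778-83530518, minus strand), Cxcl16 (chr11:70453983-70459984, minus strand) and Cx3cl1 (chr8:94772009-94782427, plus strand) stand apart from the rest of the 9. Other ligand genes lie near Ccl5 and Cx3cl1. Ccl9 (chr11:83572919-83578636) is near Ccl5, and Cx3cl1 lies between Ccl22 (chr8:94745590-94751699) and Ccl17 (chr8:94810453-94812036). All 9 are protein-coding in GENCODE M21, which gives them the same coordinates. Ccl2 overlaps Gm17268, Cxcl10 overlaps Art3 and Cxcl16 overlaps Zmynd15, each on the other strand, and the strand setting of the counting is not given in the sources used here. Cxcl1 and Cxcl2 are similar in sequence, and so are Ccl2 and Ccl7, so reads that align to both members of a pair may have been lost or shared.

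Promoter windows of RefSeq, from 250 bases before to 50 bases after the start of transcription in GRCm38.p6, were matched for 5 of the 9 genes: Cxcl1, Cxcl2, Cxcl9, Cxcl10 and Cx3cl1. NF-kB, the transcription factor that inflammatory signals switch on, binds sites of which GGANTTTCC, searched on both strands, is one spelling. These letters stood in the windows of Cxcl1, Cxcl2 and Cxcl10, and in 1.25% of all 32851 windows of the table. The bases from 200 to 51 before the start are shown for these 3 genes, with the matching letters in capitals. They read 5′ to 3′ on the gene's own strand. The part of these letters in the ligand levels was not tested. The Cxcl1 stretch is chr5:90891045-90891194, the Cxcl2 stretch chr5:90903699-90903848 and the Cxcl10 stretch chr5:92348940-92349089, minus strand.
Cxcl1: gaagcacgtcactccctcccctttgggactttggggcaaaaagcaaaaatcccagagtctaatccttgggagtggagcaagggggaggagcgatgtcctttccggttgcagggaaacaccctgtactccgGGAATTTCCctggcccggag
Cxcl2: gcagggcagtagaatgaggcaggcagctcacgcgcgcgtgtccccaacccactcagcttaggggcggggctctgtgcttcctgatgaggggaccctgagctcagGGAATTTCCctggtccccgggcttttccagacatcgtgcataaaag
Cxcl10: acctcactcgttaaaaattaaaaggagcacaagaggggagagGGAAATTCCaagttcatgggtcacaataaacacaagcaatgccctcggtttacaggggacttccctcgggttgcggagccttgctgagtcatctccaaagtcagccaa

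The match is the same 9 letters in Cxcl1, where it begins 70 bases before the start, and in Cxcl2, where it begins 96 bases before it. In Cxcl10 it reads on the other strand, so the gene's own strand shows its reverse complement, beginning 158 bases before the start. The windows of Cxcl9 and Cx3cl1 did not hold these letters, which says nothing of other spellings of the site. TGANTCA, a site of the AP-1 factors Fos and Jun, searched on both strands, stood in the windows of Cxcl9 and Cxcl10 and in 7.81% of all windows. TTCNNNGAA, the site of interferon-activated STAT factors, stood in none of the 5 windows and in 8.3% of all windows.

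After injury most of the chemokine ligands were higher and Cx3cl1 was lower. At 7 dpi, 6 of the 9 were called higher than in intact nerve (Ccl2, Ccl7, Cxcl1, Cxcl2, Cxcl9 and Cxcl10), 1 was called lower (Cx3cl1) and 2 were not called (Ccl5 and Cxcl16). Of all 20409 genes tested, 15.7% were called higher and 16.3% lower in this comparison. The median log2 fold change was 1.17 over the 9 ligands and -0.10 over all genes tested. The libraries of the groups did not overlap in CPM for 6 of the 9, against 21.6% of all genes. At 14 dpi, the same 6 genes were called higher than in intact nerve, Cx3cl1 and Ccl5 were called lower, and Cxcl16 was not called. There 6.86% of all genes were called higher and 5.09% lower, the median log2 fold change was 1.48 over the 9 ligands and 0.005 over all genes, and the groups did not overlap for 7 of the 9, against 9.87% of all genes. Both comparisons use the same 5 intact libraries, so they are not separate pieces of evidence.

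**Figure D1:**
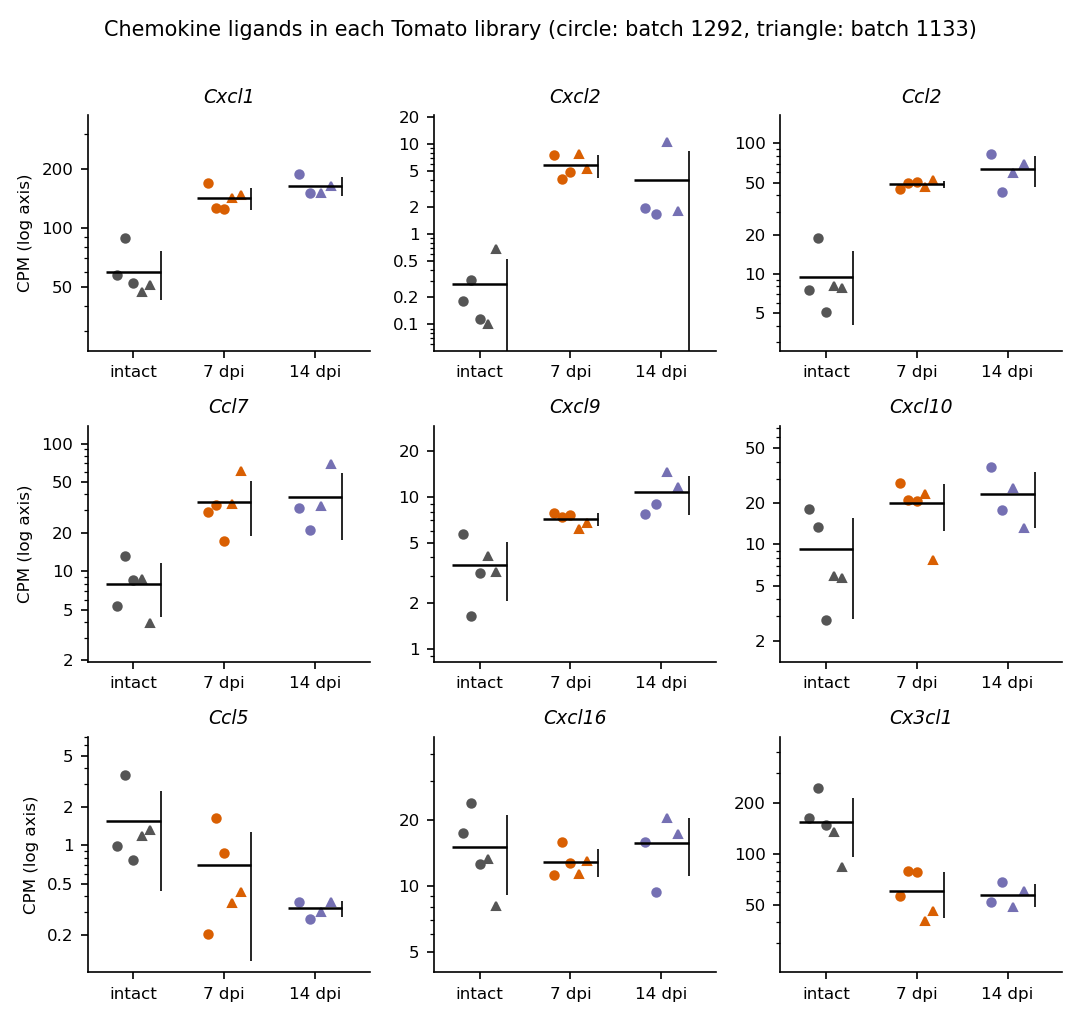
CPM (log axis) of each ligand in every Tomato library, with the mean as a horizontal line and 1 SD as a vertical line, which ends at the axis where the mean minus the SD lies below it. Circles are batch 1292 and triangles batch 1133; Cxcl1, Cxcl2, Ccl2, Ccl7 and Cxcl9 are higher in all 9 injured libraries than in any intact one, Cx3cl1 is lower in all 9 injured libraries, and Cxcl16 overlaps throughout.

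The neutrophil attractants Cxcl1 and Cxcl2, which act on the receptor Cxcr2, both rose. Cxcl1 was at 57.8, 88.9, 52.8, 47.5 and 51.3 CPM in intact nerve, at 168, 126, 124, 143 and 146 CPM at 7 dpi and at 187, 150.7, 150.8 and 164 CPM at 14 dpi. Every injured library lay above every intact one. On the log2 scale the change over intact was 1.26 ± 0.16 at 7 dpi (SE, adjusted p = 1.2e-05, edgeR) and 1.48 ± 0.17 at 14 dpi (adjusted p = 1.9e-05). Cxcl2 was close to undetected in intact nerve, where the 5 libraries held 5, 6, 3, 3 and 21 counts. It stood there at 0.183, 0.310, 0.114, 0.102 and 0.691 CPM, against 7.51, 4.03, 4.87, 7.75 and 5.23 CPM at 7 dpi and 1.92, 1.66, 10.4 and 1.79 CPM at 14 dpi. All injured libraries were above all intact ones, and 3 of the 4 libraries at 14 dpi lay below the whole range of 7 dpi. The log2 fold change over intact was 4.49 ± 0.57 at 7 dpi (adjusted p = 1.4e-05) and 3.61 ± 0.58 at 14 dpi (adjusted p = 4.7e-04).

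1 library set much of the Cxcl2 level at 14 dpi. Replicate 3, with 10.4 CPM, also had the highest summed level of 12 macrophage markers of all 20 libraries, 1109 CPM, against 41.1 to 60.7 CPM in the other 14 dpi libraries and 31.2 to 49.3 CPM in intact nerve. Without it, the log2 fold change of Cxcl2 at 14 dpi was 2.71 ± 0.49 (adjusted p = 0.0019), still called. At 7 dpi the macrophage sum was 56.7 to 70.8 CPM in 4 libraries and 347 CPM in replicate 4, whose Cxcl2 level of 7.75 CPM was close to the 7.51 CPM of replicate 1. Without both of these libraries, a choice made after their values were seen, the log2 fold change of Cxcl2 at 14 dpi was 2.70 ± 0.53 (adjusted p = 0.0043). In the Cherry libraries the macrophage sum was 40.1 to 69.9 CPM in KO and 75.1 to 90.9 CPM in WT. Cxcl2 averaged 4.53 ± 1.56 CPM in KO and 5.88 ± 2.81 CPM in WT (SD, n = 3 each). Cd14, named after its values were seen, was the largest part of that sum, averaging 34.0 ± 7.77 CPM in KO and 56.5 ± 21.1 CPM in WT. Ptprc, the gene of CD45, averaged 0.594 CPM in KO and 0.272 CPM in WT. In Tomato libraries Cd14 averaged 19.35 CPM in intact, 38.77 CPM in 7 dpi and 23.82 CPM in 14 dpi libraries. Ptprc averaged 0.892, 0.743 and 3.19 CPM in that order. The part of macrophages in the Cd14 RNA was not tested.

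The monocyte attractants Ccl2 and Ccl7, ligands of Ccr2, rose together. Ccl2 was at 7.52, 18.95, 5.14, 8.02 and 7.73 CPM in intact nerve, at 45.0, 50.1, 50.1, 46.6 and 52.5 CPM at 7 dpi and at 82.4, 42.4, 59.6 and 69.7 CPM at 14 dpi. Intact replicate 2 stood apart from the other intact libraries and was still below the lowest injured one. Ccl2 had a log2 fold change of 2.38 ± 0.28 at 7 dpi (adjusted p = 5.6e-06) and 2.77 ± 0.29 at 14 dpi (adjusted p = 1.1e-05). Ccl7 was at 5.36, 13.2, 8.57, 8.77 and 3.92 CPM in intact nerve, at 29.3, 33.0, 17.2, 33.7 and 60.9 CPM at 7 dpi and at 31.2, 21.01, 32.5 and 68.9 CPM at 14 dpi. The injured libraries were again all above the intact ones, with a wider spread than for Ccl2. Its change on the log2 scale was 2.05 ± 0.36 at 7 dpi (adjusted p = 3.3e-04) and 2.13 ± 0.38 at 14 dpi (adjusted p = 0.0012).

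Ccl7 was set beside fibroblast RNA, whose markers did not share 1 course over the groups. The summed level of 8 fibroblast markers (the list without Cd34 and Ly6a, which endothelial cells also make) was 9074 to 16620 CPM in intact, 4433 to 19730 CPM in 7 dpi and 16240 to 35670 CPM in 14 dpi libraries. Its median was 11010, 12430 and 29920 CPM in that order. The median of Ccl7 was 8.57, 32.95 and 31.85 CPM, with a log2 fold change of 0.09 ± 0.36 at 14 dpi against 7 dpi (adjusted p = 0.937, edgeR). Dcn, the largest part of the fibroblast sum in intact nerve, averaged 9687 CPM there and 3560 CPM at 7 dpi. Col1a1 averaged 643 and 4043 CPM in these groups. Over the list of 10 fibroblast genes the median log2 fold change was 1.44 at 7 dpi and 2.34 at 14 dpi. The fibroblast sum was 839 to 3278 CPM in KO and 921 to 2292 CPM in WT Cherry libraries, and in no group were any of these markers at 0 throughout. The lowest Ccl7 library at 7 dpi, replicate 3, had the lowest fibroblast sum of that group, and the highest, replicate 5, had the highest. The lowest and highest libraries also matched in this way in KO and in WT Cherry libraries. They did not match in intact nerve or at 14 dpi. In intact nerve the highest Ccl7 library, replicate 2, had the lowest fibroblast sum. At 14 dpi the highest sum was in replicate 3, whose Ccl7 level of 32.5 CPM was below the 68.9 CPM of replicate 4. Over the 14 Tomato libraries, with group and batch removed, Ccl7 had a Pearson r of 0.691 with the mean log2 CPM of the 8 markers. This was the highest r of the 9 ligands with that mean. With the mean of the whole fibroblast list as a covariate, the log2 fold change of Ccl7 was 0.99 ± 0.33 at 7 dpi (adjusted p = 0.0510) and 0.18 ± 0.53 at 14 dpi (adjusted p = 0.974). With the list without Cd34 and Ly6a, a choice made after seeing the data, it was 1.11 ± 0.36 (adjusted p = 0.0383) and 0.28 ± 0.59 (adjusted p = 0.976). That covariate itself differs between intact and 14 dpi libraries, and with it none of the 9 ligands was called at 14 dpi. The log2 fold change of Ccl2 was 1.28 to 3.03 at 7 dpi and 2.16 to 3.14 at 14 dpi over the alternatives tried, with the 7 dpi call lost under the perineurial covariate (adjusted p = 0.319) and the 14 dpi call under the fibroblast ones (highest adjusted p = 0.0551).

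**Figure D2:**
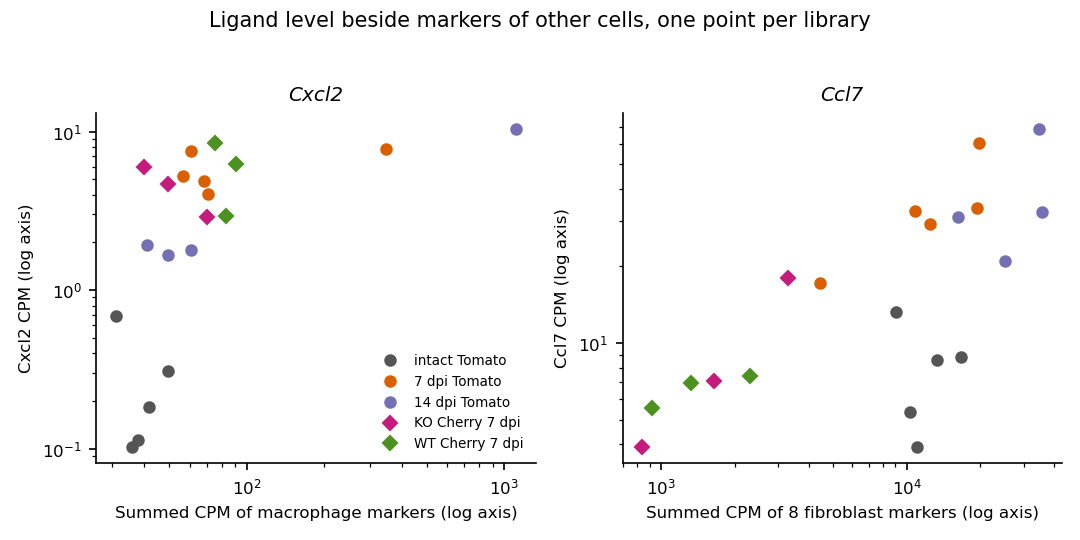
Cxcl2 against the summed CPM of macrophage markers, and Ccl7 against the summed CPM of 8 fibroblast markers, 1 point per library, all axes log. The 14 dpi library with a macrophage sum of 1109 CPM has the highest Cxcl2 level, and the Cherry libraries are low in both fibroblast markers and Ccl7.

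The T cell attractants Cxcl9 and Cxcl10, ligands of Cxcr3 that interferon gamma is known to induce, rose at both times. Cxcl9 was at 5.69, 1.65, 3.16, 4.11 and 3.19 CPM in intact nerve, at 7.87, 7.33, 7.58, 6.13 and 6.72 CPM at 7 dpi and at 7.69, 8.92, 14.6 and 11.6 CPM at 14 dpi. The groups did not overlap, although the highest intact library was near the lowest 7 dpi one. Cxcl9 had a log2 fold change of 1.00 ± 0.27 at 7 dpi (adjusted p = 0.0091) and 1.56 ± 0.29 at 14 dpi (adjusted p = 0.0015). The call at 7 dpi was not made in either batch alone, with 0.83 ± 0.36 in batch 1133 (adjusted p = 0.237) and 1.11 ± 0.38 in batch 1292 (adjusted p = 0.0542). At 14 dpi it was lost in batch 1292 alone (1.22 ± 0.42, adjusted p = 0.102).

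Cxcl10 was at 18.1, 13.4, 2.82, 5.95 and 5.72 CPM in intact nerve, at 28.2, 21.2, 20.5, 23.2 and 7.76 CPM at 7 dpi and at 36.4, 17.9, 25.8 and 13.2 CPM at 14 dpi. Its groups overlapped: 2 intact libraries were above the lowest 7 dpi library. Cxcl10 had a log2 fold change of 1.17 ± 0.39 at 7 dpi (adjusted p = 0.0304) and 1.46 ± 0.41 at 14 dpi (adjusted p = 0.0282). At 7 dpi the call was lost without 7 dpi replicate 1 (adjusted p = 0.0695), 7 dpi replicate 4 (0.135), intact replicate 4 (0.0686) or intact replicate 5 (0.0696). At 14 dpi it was lost without 14 dpi replicate 1 (adjusted p = 0.131), 14 dpi replicate 3 (0.0912), intact replicate 4 (0.0716) or intact replicate 5 (0.0703). It was also lost at both times without the batch term, in each batch alone, with the fibroblast, macrophage or perineurial mean as a covariate, and without the 2 libraries of highest macrophage sum, with positive fold changes in every case.

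Ccl5, which draws T cells and monocytes, was rare in all groups, with 4 to 68 counts per Tomato library. It was at 0.991, 3.51, 0.762, 1.19 and 1.32 CPM in intact nerve, at 0.204, 1.62, 0.875, 0.356 and 0.436 CPM at 7 dpi and at 0.363, 0.265, 0.301 and 0.359 CPM at 14 dpi. The 14 dpi libraries were all below the intact ones, while those of 7 dpi overlapped them. Ccl5 had a log2 fold change of -1.199 ± 0.58 at 7 dpi (adjusted p = 0.137) and -2.15 ± 0.66 at 14 dpi (adjusted p = 0.0437). The 14 dpi call was lost in 15 of 23 alternatives, among them leaving out any of the 4 libraries of 14 dpi or intact replicate 2, 4 or 5, where the log2 fold change was -2.34 to -1.75 and the adjusted p 0.0540 to 0.138.

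The membrane-bound ligands behaved differently from each other. Cx3cl1, fractalkine, the ligand of Cx3cr1 on monocytes and macrophages, was at 163, 247, 148.2, 136 and 84.2 CPM in intact nerve, at 56.9, 79.9, 78.7, 40.3 and 46.5 CPM at 7 dpi and at 52.6, 69.0, 48.7 and 60.9 CPM at 14 dpi. Every injured library was below every intact one, the nearest being intact replicate 5. The log2 fold change was -1.36 ± 0.19 at 7 dpi (adjusted p = 3.2e-05) and -1.32 ± 0.21 at 14 dpi (adjusted p = 3.9e-04). In batch 1133 alone the 14 dpi call of Cx3cl1 was lost (-0.96 ± 0.34, adjusted p = 0.183). Cxcl16, the ligand of Cxcr6 and also a scavenger receptor for oxidized lipoprotein, was at 8.03 to 23.9 CPM in intact nerve with a median of 13.2 CPM, at 11.2 to 15.7 CPM at 7 dpi with a median of 12.7 CPM and at 9.33 to 20.4 CPM at 14 dpi with a median of 16.5 CPM. Its groups overlapped, with log2 fold changes of -0.22 ± 0.26 at 7 dpi (adjusted p = 0.590) and 0.11 ± 0.28 at 14 dpi (adjusted p = 0.896).

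**Figure D3:**
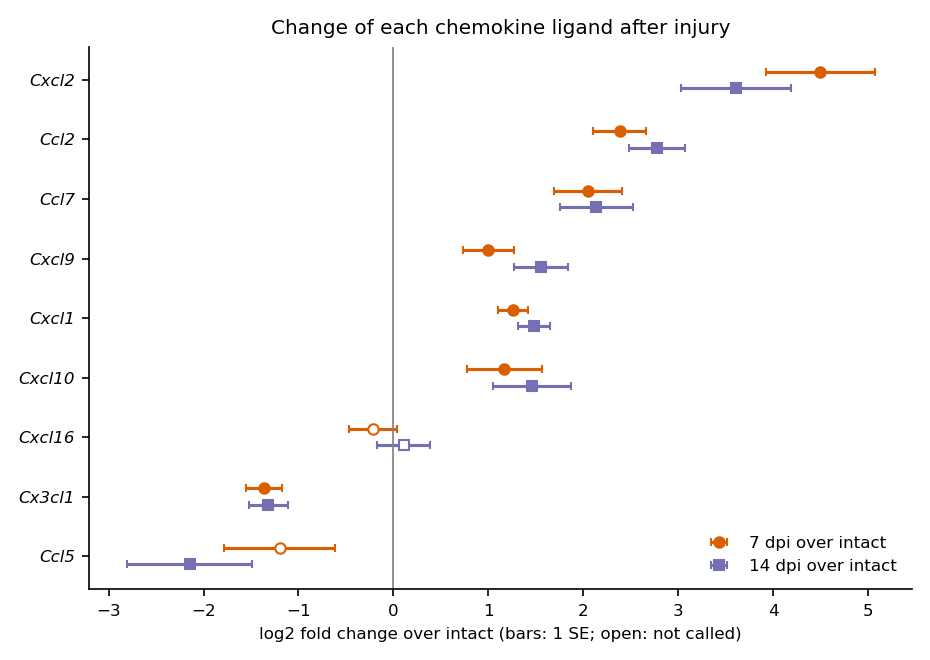
Log2 fold change over intact nerve of each ligand at 7 dpi (circles) and 14 dpi (squares), with bars of 1 SE; filled symbols are called at an adjusted p under 0.05. Cxcl2 has the highest values, 4.49 and 3.61, and Cx3cl1 and Ccl5 lie below 0 at both times.

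Between the lesion times no ligand passed the test. At 14 dpi against 7 dpi none of the 9 was called by edgeR, none had an unadjusted p under 0.05 and DESeq2 also called none, while 9.93% of all genes were called and the groups of 10.8% of genes did not overlap. The groups overlapped for all 9 ligands. The log2 fold changes were 0.56 ± 0.29 for Cxcl9 (adjusted p = 0.279), -0.88 ± 0.52 for Cxcl2 (adjusted p = 0.365) and 0.39 ± 0.28 for Ccl2 (adjusted p = 0.485), and 0.05 ± 0.20 for Cx3cl1 (adjusted p = 0.941). The Cxcl2 value rested on 14 dpi replicate 3, without which it was -1.68 ± 0.48 (adjusted p = 0.0505). For Cxcl2 the batches differed too, with -1.63 ± 0.47 in batch 1292 (adjusted p = 0.0789) and -0.05 ± 0.76 in batch 1133 (adjusted p = 0.993), the batch of that library.

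The make-up of the group changed with these shifts. Per length, Cxcl1 was the most abundant of the 9 in every group, with 62.6 ± 17.6 RPKM in intact, 149 ± 18.7 RPKM in 7 dpi and 171 ± 18.1 RPKM in 14 dpi libraries (SD). Its share of the 9 ligands' summed RPKM was 43.4% in intact nerve, 50.5% at 7 dpi and 50.2% at 14 dpi. Cx3cl1 came second in intact nerve with 44.1 ± 16.7 RPKM and 30.6% of the sum, overlapping Cxcl1 in its range, and made 5.81% at 7 dpi and 4.79% at 14 dpi. Ccl2 was second after injury, with 8.08% of the sum in intact nerve, 20.4% at 7 dpi and 22.9% at 14 dpi, and Ccl7 was the third with 6.90%, 14.8% and 14.0% at the same times. Below these, the order was Cxcl10, Cxcl16, Ccl5, Cxcl9 and Cxcl2 in intact nerve, in which each neighbour overlapped the next except Cxcl9 and Cxcl2. At 7 dpi all neighbours from Ccl2 down to Ccl5 overlapped.

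**Figure D4:**
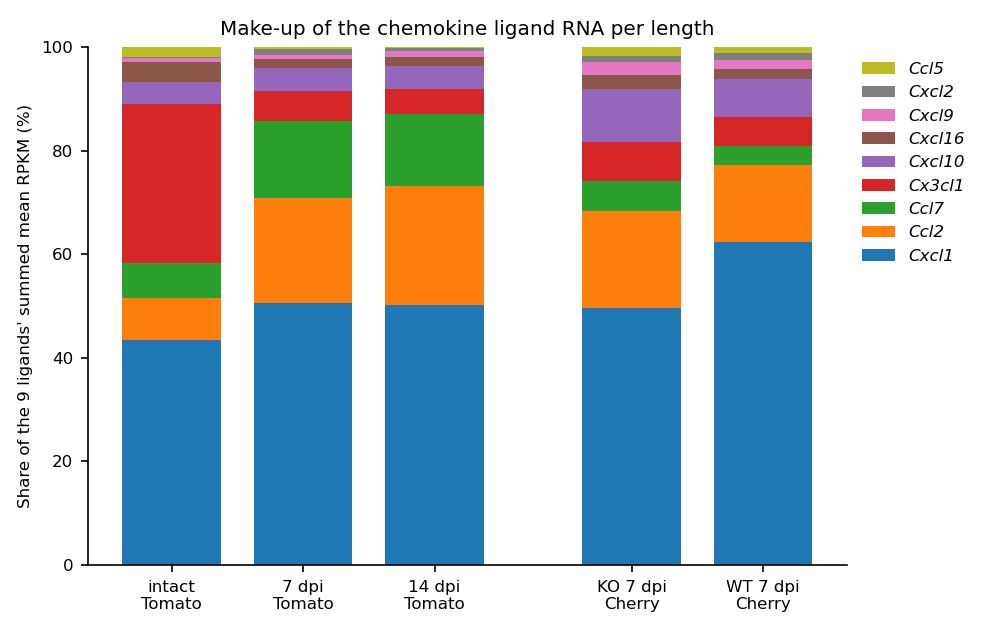
Share (%) of each ligand in the summed mean RPKM of the 9 ligands, by group, with the separately normalized experiments set apart. The Cx3cl1 share is 30.6% in intact nerve and 4.79 to 7.41% in the 4 lesion groups, where Cxcl1 makes 49.7 to 62.3%.

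Over the 14 Tomato libraries, the gene whose log2 CPM was most like that of Ccl2 was Cxcl1 (Pearson r = 0.979 with batch removed), followed by the cytokine gene Il6 (0.974) and Tnfaip6 (0.974), which encodes a hyaluronan-binding protein made in inflammation. For Cxcl1 they were Ccl2, Tnfaip6 (0.977) and Plac8 (0.972). These values are descriptions: the libraries share the step between intact and injured nerve, and with group removed too the r of Ccl2 and Cxcl1 was 0.772. The genes most like Cx3cl1 were Prune2 (0.961), Slc3a2 (0.957), which encodes a subunit of amino acid transporters, and Fam107a (0.957). Those most like Ccl7 were Rcn1, Gpx7 and Tmem86a (0.953 each), and those most like Cxcl2 were Ipmk (0.959), Ammecr1 (0.942) and Entpd7 (0.941). Cxcl16 was most like Osmr (0.921), the oncostatin M receptor, the stress-induced factor Atf3 (0.905) and Hs3st1 (0.903), an enzyme that modifies heparan sulfate. The closest genes were Rasal2 (0.946), Ctdnep1 (0.874) and Rasa1 (0.873) for Cxcl10, Pcdhb16 (0.876), L3hypdh (0.865) and Socs5 (0.865) for Cxcl9, and the interferon-induced Oasl1 (0.891), Ccn2 (0.864) and 1810013L24Rik (0.853) for Ccl5.

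Further chemokine ligands were measured too. Of 25 further ligand genes, 14 passed the low-count filter in the Tomato experiment. At 7 dpi 3 were called higher and 1 lower, and at 14 dpi 5 higher and 1 lower, with Cxcl12 the lower one at both times. Of all genes, 15.7% were called higher and 16.3% lower at 7 dpi, so the 4 of 14 called there are near the share of all genes, while at 14 dpi the shares of all genes were 6.86% and 5.09%. Cxcl5, a further Cxcr2 ligand, averaged 2.54 ± 0.53 CPM at 7 dpi against 0.137 ± 0.174 CPM in intact nerve (SD, n = 5 each; log2 fold change 4.33 ± 0.76, adjusted p = 3.0e-04). Cxcl14 rose by 2.67 ± 0.48 at 7 dpi (adjusted p = 3.5e-04) and 2.97 ± 0.49 at 14 dpi (adjusted p = 6.2e-04) on the log2 scale. Ccl11 and Ccl8, of the cluster of Ccl2 and Ccl7, were chosen for mention after their values were seen. Ccl11, eotaxin, averaged 64.5 ± 26.5 CPM at 7 dpi against 43.6 ± 20.9 CPM in intact nerve (log2 fold change 0.54 ± 0.34, adjusted p = 0.269) and 146 ± 37.4 CPM at 14 dpi (1.70 ± 0.37, adjusted p = 0.0052). In Cherry libraries it was at 11.1 ± 1.17 CPM in KO and 13.3 ± 1.76 CPM in WT. Ccl8 rose by 3.77 ± 0.80 at 7 dpi (adjusted p = 0.0015) and 4.97 ± 0.81 at 14 dpi (adjusted p = 5.4e-04) on the log2 scale, with means of 1.40 ± 1.14 CPM at 7 dpi and 5.83 ± 8.40 CPM at 14 dpi, against 0.140 ± 0.204 CPM in intact nerve.

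The G protein-coupled receptors of these ligands were scarce in the sorted cells, from which leukocytes with CD45 had been left out. Of 13 chemokine receptor genes 7 passed the filter, and 1, Cxcr4, a receptor of Cxcl12, was called higher at both times. Of all genes, 15.7% were called higher and 16.3% lower at 7 dpi, and 6.86% higher and 5.09% lower at 14 dpi. Ccr2, the receptor of Ccl2 and Ccl7, averaged 0.289 ± 0.272 CPM at 7 dpi and 0.347 ± 0.441 CPM at 14 dpi, against 0.515 ± 0.644 CPM in intact nerve. Of 6 genes listed as atypical receptors, 1 was called higher and 4 lower at 7 dpi and 3 lower at 14 dpi. All but Pitpnm3 bind chemokines without G protein signalling or resemble receptors that do. Ackr1, the venular receptor that carries chemokines across endothelium, averaged 378 ± 121 CPM at 7 dpi against 198.9 ± 179.5 CPM in intact nerve (log2 fold change 1.11 ± 0.38, adjusted p = 0.0326). At 14 dpi it averaged 360 ± 60.6 CPM (1.25 ± 0.41, adjusted p = 0.0610). Ackr3 and Pitpnm3 were lower at both times, with log2 fold changes of -1.40 ± 0.17 and -3.16 ± 0.23 at 7 dpi and -1.41 ± 0.18 and -1.18 ± 0.22 at 14 dpi.

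Of 14 genes for shedding and for heparan sulfate presentation, 6 were called higher and 3 lower at 7 dpi, and 3 higher and 2 lower at 14 dpi. Of all genes, 15.7% were called higher and 16.3% lower at 7 dpi, and 6.86% and 5.09% at 14 dpi. The sheddase genes Adam10 and Adam17 had log2 fold changes of 0.49 ± 0.12 (adjusted p = 0.0060) and 0.36 ± 0.13 (adjusted p = 0.0406) at 7 dpi, and of 0.34 ± 0.13 (adjusted p = 0.109) and 0.49 ± 0.14 (adjusted p = 0.0255) at 14 dpi. Hspg2, perlecan, rose by 1.64 ± 0.19 and the heparan sulfate polymerase gene Ext1 by 1.202 ± 0.14 at 7 dpi, while the syndecans Sdc4 and Sdc1 had log2 fold changes of -2.62 ± 0.28 and -1.61 ± 0.20. Syndecans are made by perineurial and other cells too, and the summed level of 8 perineurial markers was 636 to 1483 CPM at 7 dpi and 1852 to 4275 CPM at 14 dpi, against 5108 to 8282 CPM in intact nerve. The part of these cells in the syndecan values was not tested.

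Genes of the NF-kB, interferon response and leukocyte adhesion lists moved unevenly. The shares of all genes were again 15.7% higher and 16.3% lower at 7 dpi, and 6.86% and 5.09% at 14 dpi. Of 19 NF-kB inducers and feedback genes, 13 were called higher and none lower at 7 dpi (median 0.64), and 8 higher and none lower at 14 dpi (median 0.54). Il6 averaged 134 ± 30.6 CPM at 7 dpi and 121 ± 55.6 CPM at 14 dpi, against 31.2 ± 21.1 CPM in intact nerve. The log2 fold change of Il6 was 2.18 ± 0.27 at 7 dpi (adjusted p = 1.1e-05) and that of Bcl3, a nuclear partner of NF-kB, 1.66 ± 0.20 (adjusted p = 8.1e-06). Of 19 interferon response genes, the known inducers and companions of Cxcl9 and Cxcl10, 3 were called higher and 10 lower at 7 dpi (median -0.53), and 2 higher and 5 lower at 14 dpi (median -0.15). The kinases Jak1 (1.00 ± 0.12) and Jak2 (1.08 ± 0.14) rose at 7 dpi, while the interferon-induced Gbp4 (-1.43 ± 0.13) and Rsad2 (-1.92 ± 0.19) fell. Of 10 leukocyte adhesion genes 9 were tested, of which 6 were called higher and 2 lower at 7 dpi and 3 higher at 14 dpi, with Sele, E-selectin, at 3.11 ± 0.38 and 2.46 ± 0.39.

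Immediate early genes, known to be switched on by tissue digestion too, were called lower for 12 of 14 and higher for none at 7 dpi (median -0.76), and higher for 2 of 14 at 14 dpi. Their summed level was 9626 to 12900 CPM at 7 dpi and 16530 to 20860 CPM at 14 dpi, against 12430 to 27370 CPM in intact nerve, where it was highest in replicate 2, the library with the highest intact values of Ccl2, Ccl5, Ccl7, Cxcl1, Cxcl16 and Cx3cl1. With the mean of that list as a covariate, 6 ligands were called at 7 dpi and 8 at 14 dpi. Among markers of other cells, 1 of 11 tested macrophage genes was called higher at 7 dpi and 3 at 14 dpi, 6 of 8 mural genes were lower at 7 dpi and 2 at 14 dpi, and all 5 erythrocyte genes were lower at 7 dpi. Of 8 Schwann cell genes, 1 was higher and 4 lower at 7 dpi, and 4 higher and 1 lower at 14 dpi. Of 10 genes of other leukocytes, summing to at most 7.44 CPM in any Tomato library, 1 was tested and called lower at 7 dpi, and Nkg7 was at 0 in all intact libraries. Of 8 perineurial genes, 8 were lower at 7 dpi and 4 at 14 dpi. Of 10 fibroblast genes, 6 were higher and 2 lower at 7 dpi, and 7 higher and 1 lower at 14 dpi. Of 10 endothelial genes, 7 were higher and 2 lower at 7 dpi, and 2 higher and 2 lower at 14 dpi. Beside these list counts stand the shares of all genes, 15.7% higher and 16.3% lower at 7 dpi, and 6.86% and 5.09% at 14 dpi. Beyond the covariates named, the part of these cells in the ligand values was not tested.

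Deletion of Plxnd1, the receptor for class 3 semaphorins that guides vessel growth, was checked first. Plxnd1 was at 131.4, 160.5 and 160.1 CPM in KO libraries, against 350, 324 and 344 CPM in WT libraries (log2 fold change -1.23 ± 0.10, adjusted p = 1.3e-04). No KO library reached the WT range, and RNA counted over the whole gene remained at 0.427-fold of WT. None of the 9 ligands was called in KO against WT by edgeR, and 2 had an unadjusted p under 0.05. Of all 16227 genes tested, 0.308% were called. The median log2 fold change was 0.17 over the 9 ligands and -0.01 over all genes. The KO and WT libraries did not overlap for 2 of the 9, Cxcl1 and Cxcl16, against 11.8% of all genes.

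**Figure D5:**
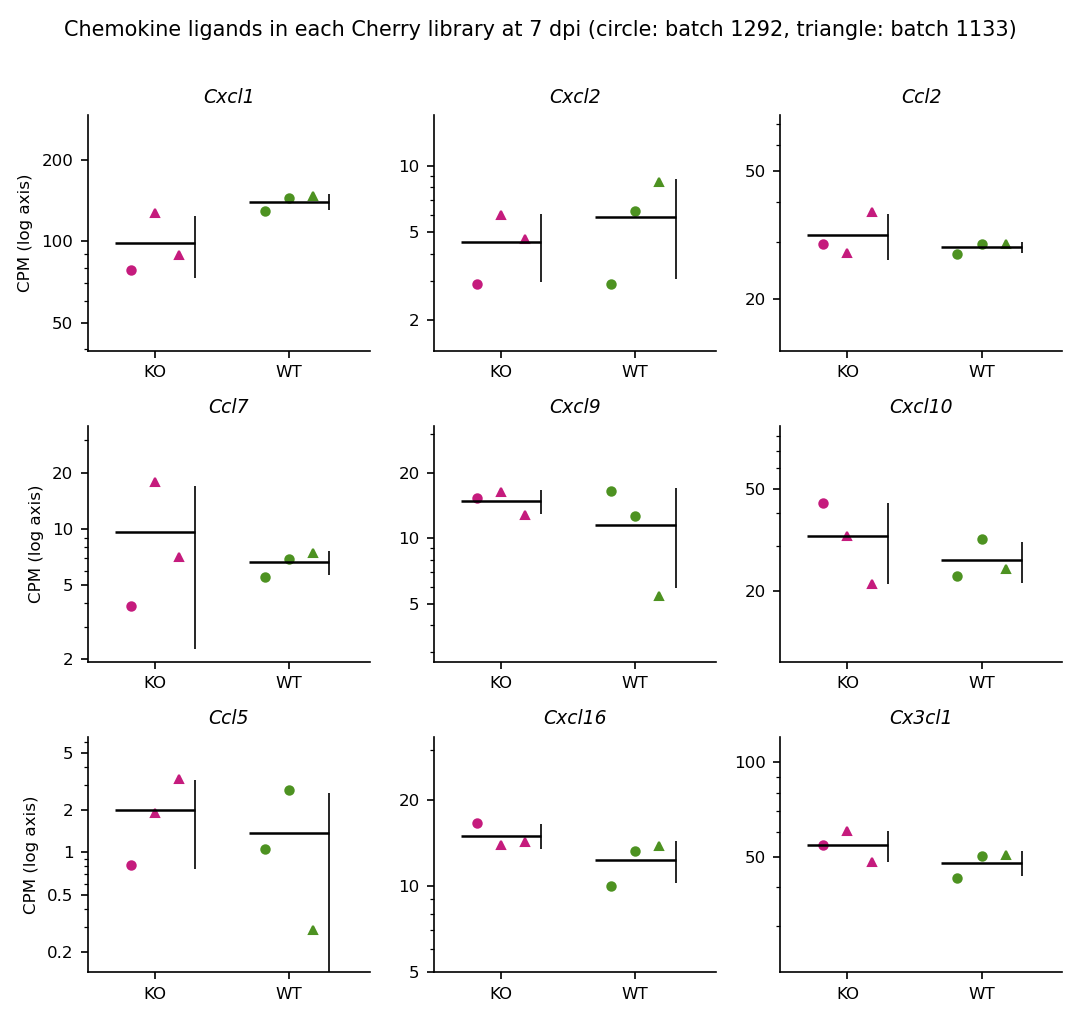
CPM (log axis) of each ligand in the 3 KO and 3 WT Cherry libraries at 7 dpi, with the mean as a horizontal line and 1 SD as a vertical line, which ends at the axis where the mean minus the SD lies below it. Circles are batch 1292 and triangles batch 1133; Cxcl1 and Cxcl16 are the ligands whose groups do not overlap.

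Cxcl1 was the ligand with the smallest p in this comparison. It was at 78.7, 127.02 and 89.3 CPM in KO libraries, against 130, 145 and 147 CPM in WT libraries. All KO values were below all WT values, with KO replicate 2 close to the lowest of them. The log2 fold change was -0.62 ± 0.15 (unadjusted p = 0.0014 and adjusted p = 0.164 in edgeR). It was called with DESeq2 (-0.61 ± 0.15, adjusted p = 0.0081), without the low-count filter (-0.64 ± 0.13, adjusted p = 5.6e-04), in the authors' deposited ComBat-Seq table of batch-corrected Cherry counts, fitted without a batch term (-0.70 ± 0.13, adjusted p = 0.0326) and without KO replicate 2 (-0.76 ± 0.12, adjusted p = 0.0309). Within batches it was -0.44 ± 0.20 in batch 1133 (adjusted p = 0.636) and -0.80 ± 0.18 in batch 1292 (adjusted p = 0.130), the sign being the same in both. Whether Cxcl1 passed the threshold thus depended on the test and on 1 library, and its sign did not.

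The other ligands varied within KO and WT by as much as between them or nearly so. Cxcl9 was at 15.4, 16.3 and 12.7 CPM in KO libraries, against 16.4, 12.7 and 5.44 CPM in WT libraries. The log2 fold change was 0.73 ± 0.30 (unadjusted p = 0.0334, adjusted p = 0.394, edgeR). It was 0.08 without WT replicate 3, the library with the low value, and 1.42 without KO replicate 1. Cxcl10 was at 43.8, 32.8 and 21.2 CPM in KO libraries, against 22.9, 31.8 and 24.3 CPM in WT libraries, a log2 fold change of 0.42 ± 0.20 (adjusted p = 0.457). Cxcl16 was at 16.7, 13.9 and 14.3 CPM in KO libraries, against 9.96, 13.2 and 13.9 CPM in WT libraries, with almost no gap between the groups (0.27 ± 0.20, adjusted p = 0.622).

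Cx3cl1 was at 54.5, 60.3 and 48.1 CPM in KO libraries, against 42.8, 50.2 and 50.5 CPM in WT libraries (0.17 ± 0.13, adjusted p = 0.653). Ccl2 was at 29.6, 27.6 and 37.2 CPM in KO libraries, against 27.5, 29.5 and 29.6 CPM in WT libraries (0.09 ± 0.15, adjusted p = 0.857). The KO and WT ranges overlapped for both genes. Ccl7 was at 3.89, 17.97 and 7.09 CPM in KO libraries, against 5.57, 6.94 and 7.44 CPM in WT libraries (0.08 ± 0.46, adjusted p = 0.968), and its highest value was in KO replicate 2, which had the highest fibroblast sum of the Cherry libraries, 3278 CPM. The sign of its fold change was not stable: it was -0.40 without KO replicate 2, -0.69 without WT replicate 3 and 0.76 without KO replicate 1. Cxcl2 was at 2.90, 6.01 and 4.66 CPM in KO libraries, against 2.92, 6.23 and 8.50 CPM in WT libraries (-0.66 ± 0.33, adjusted p = 0.461). Ccl5 was at 0.822, 1.89 and 3.26 CPM in KO libraries, against 1.05, 2.74 and 0.286 CPM in WT libraries (0.83 ± 1.08, adjusted p = 0.811), a spread that leaves its direction unknown.

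Genes of the same pathways were called in KO although the ligands were not, where 0.308% of all genes were called. Cxcl1, which was not called, had a log2 fold change of -0.62, as did Il6. How calls hold under other settings was checked gene by gene for the ligands only. Over all genes, the 50 calls became 5 without the batch term. Of 19 NF-kB inducers and feedback genes, none was higher and 3 were lower, among them Il6 (104 ± 8.87 CPM in KO and 153.8 ± 11.8 CPM in WT, SD, n = 3 each; log2 fold change -0.62 ± 0.10, adjusted p = 0.0229) and Nfkbiz (-0.75 ± 0.10, adjusted p = 0.0089). Of 9 tested leukocyte adhesion genes none was higher and 3 were lower, with Sele at -0.70 ± 0.10 (adjusted p = 0.0099) and Icam1 at -0.65 ± 0.11 (adjusted p = 0.0248). Of 14 immediate early genes none was higher and 3 were lower, with Fosb at -0.76 ± 0.10 and Nr4a1 at -0.79 ± 0.11. Of 19 interferon response genes 4 were higher and none lower, with Isg15 at 0.98 ± 0.13 (adjusted p = 0.0075) and Ifit3 at 1.16 ± 0.16 (adjusted p = 0.0089). Of 9 further ligands, 2 chemokine receptors, 6 atypical receptors and 14 shedding and presentation genes tested, none was called. Of the marker lists, 1 perineurial gene of 5 tested, Moxd1, was lower in KO, and none of the endothelial, fibroblast, mural, Schwann, macrophage, other leukocyte or erythrocyte genes was called. The summed immediate early level was 8783 to 10570 CPM in KO and 10190 to 14500 CPM in WT, and its part in the Cxcl1 values was not tested.

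Set beside each other, the Tomato libraries at 7 dpi and the WT Cherry libraries at 7 dpi, sorted with different reporters and normalized separately, gave a like order of ligands per length. Cxcl1 led in both, with 149 ± 18.7 RPKM in Tomato and 147 ± 9.90 RPKM in WT Cherry libraries (SD), followed by Ccl2 with 60.1 ± 3.67 and 35.5 ± 1.46 RPKM. Ccl7 was the third in Tomato libraries with 43.5 ± 19.98 RPKM and the fifth in WT Cherry libraries with 8.30 ± 1.21 RPKM, where Cxcl10 (17.3 ± 3.14 RPKM) and Cx3cl1 (13.5 ± 1.23 RPKM) stood before it. These levels are descriptions and were not tested, and no intact Cherry library was analysed here.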

How the data were processed

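RNA was sequenced in bulk from 20 libraries of sorted cells, 14 in the Tomato and 6 in the Cherry experiment. The deposited values are raw whole-number counts per gene, per the file headers, in 1 table for each experiment. The authors also deposited Cherry counts after ComBat-Seq batch correction. Per the submitters' processing notes, reads were handled with Trimmomatic 0.39, STAR 2.5.3a and featureCounts 1.6.4 on mm10 (GRCm38); Cell Ranger 3.0.2 is named too. The sources used here give neither the annotation release nor the strand setting, nor how multiply aligned reads were treated.

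The uncorrected counts went into edgeR 4.0.16 (R 4.3.3) with its default low-count filter, TMM scaling and the robust quasi-likelihood test, 1 fit per experiment, with batch (1133 or 1292, as labelled) in the model and Benjamini-Hochberg adjustment over all genes tested. The SE is approximate, the size of the log2 fold change over the root of its F statistic. RPKM is TMM-scaled CPM per kilobase of the deposited exon length. Calls use an adjusted p under 0.05. Both batches hold every group. No 2 libraries of a group had identical counts, and chi-square divided by its degrees of freedom was 15.4 to 121 in the 32 pairs. CPM values of rare genes such as Cxcl2 and Ccl5 are limited by counting error.

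The members, the further gene lists and the rule for named genes were chosen with earlier results of these data known. The rule names all 9 ligands and Plxnd1 in every comparison. For each list it names the first 2 symbols and up to 2 rising and 2 falling called genes of smallest p. For each ligand it names the 3 genes with the highest r over Tomato libraries, among genes with a mean log2 CPM of at least 3. The text uses part of the names it allows. Alternatives were other scalings (RLE, library size), no filter, no batch term, each batch alone, DESeq2 1.42.0, the ComBat-Seq table without a batch term, each library left out, the compared groups alone, and marker list means as covariates.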

Additional observations from a re-analysis of the deposited data

Results flagged for a closer look

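In groups of 4 or 5 libraries, 27 sets of ligand values were screened for a library standing far from the rest of its group, and 4 were picked out. For independent values from a normal distribution, chance picks out about 1 set in 20. CPM values need not follow that distribution, and sets from the same libraries are not independent. 3 of them were in intact replicate 2: Ccl2 was at 18.95 CPM, against 5.14 to 8.02 CPM in the other intact libraries, Ccl5 was at 3.512 CPM, against 0.762 to 1.32 CPM, and Cxcl1 was at 88.93 CPM, against 47.5 to 57.8 CPM. This library also had the highest immediate early sum of all libraries, 27370 CPM, whose part in these values was not tested. The other one was Cxcl2 in 14 dpi replicate 3, at 10.38 CPM against 1.66 to 1.92 CPM in the other 14 dpi libraries, where the macrophage sum was 1109 CPM. All 4 values are above those of the other libraries of their group.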

How the results depend on the processing

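Over 36 results (9 ligands in 4 comparisons), 755 alternative values were computed; 688 stayed on their side of the threshold, 63 lost a call, 4 gained one and no called value changed sign. The main counts of called ligands were 7 at 7 dpi, 8 at 14 dpi, 0 at 14 dpi against 7 dpi and 0 in KO against WT. With each library left out, they ranged from 6 to 7, from 6 to 8, from 0 to 0 and from 0 to 1. At 14 dpi the count was 5 in batch 1133 alone and 5 in batch 1292 alone, and 0 with the fibroblast mean as a covariate, with or without Cd34 and Ly6a. At 7 dpi it was 0 with the perineurial mean as a covariate, a list that is lower in every 7 dpi library than in any intact one. In KO against WT it was 1, Cxcl1, without the low-count filter, with DESeq2, in the ComBat-Seq table without a batch term and without KO replicate 2. The covariates differ between the groups compared, so group and covariate cannot be told apart there. Over all genes, the 50 called in KO against WT were 5 without the batch term, 230 without the filter, 233 with DESeq2, 550 in the ComBat-Seq table without a batch term, 31 in batch 1292 alone and 6 to 25 without WT replicate 1 or 3 or KO replicate 1 or 3. The 2027 called at 14 dpi against 7 dpi were 3227 with DESeq2, 1305 without 14 dpi replicate 2, 1226 without the batch term, 366 in batch 1133 alone, 726 in batch 1292 alone, 908 without the libraries of highest macrophage sum and 83 to 803 with fibroblast, perineurial or immediate early covariates. Within a batch, calls over all genes numbered 2042 at 7 dpi in batch 1133, and 795 and 1500 at 14 dpi in batch 1133 and 1292. With fibroblast covariates they were 3732 and 3875 at 7 dpi and 306 and 319 at 14 dpi, and with the perineurial one 546 and 1143. No paired analysis was possible because the labels give no replicate numbers, and those used here were given in accession order.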
